A study of Mus musculus with 8 samples.

Results

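Cathepsins are the proteases of the lysosome and endosome, and RNA of 10 of them (Ctsa, Ctsb, Ctsc, Ctsd, Ctse, Ctsf, Ctsh, Ctsl, Ctss and Ctsz) was described here in mouse bone marrow stromal cell cultures, out of 19460 genes in the deposited table. The genes were taken by symbol and were chosen from the family with their levels in these same Lgr6-null and wild-type libraries already known, so the difference between genotypes is given for them as a description and without a test. The cultures came from adult mice on a C57BL/6 background. The 4 wild-type libraries were compared with 4 libraries from mice homozygous for the Lgr6-GFP-ires-CreERT2 allele, which the labels call Lgr6-null. That allele carries a fluorescent reporter and a Cre recombinase that tamoxifen can activate, and the labels give no tamoxifen treatment. Once the cells were nearly confluent, all 8 cultures were kept for 10 days in osteogenic medium, which held 10% fetal bovine serum together with β-glycerophosphate at 4 mM and ascorbic acid at 50 μg/mL. Each library is named by its genotype and the number in its column name: wild-type libraries run from M0 to M3, and Lgr6-null has M0, M2, M3 and M4.

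Most cathepsins are made as inactive precursors that carry a mannose 6-phosphate tag, are delivered to acidic endosomes and lysosomes, and become active there when a propeptide is removed. They differ in catalytic residue: cathepsins D and E are aspartic proteases, cathepsin A is a serine carboxypeptidase, and B, C, F, H, L, S and Z are cysteine proteases of the papain family, held in check by cystatins. Phagocytes such as macrophages hold large amounts of lysosomal protease, and osteoclasts, the bone-resorbing cells of the same lineage, secrete cathepsin K onto the bone surface.

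The libraries held from 7629968 (Lgr6-null M4) to 21135173 reads in genes. Lgr6 itself was 1287.3 ± 303.1 normalized counts in wild-type and 76.23 ± 19.2 in Lgr6-null (mean ± SD, n = 4 each), a log2 fold change of -4.06 with an SE of 0.20 (limma adjusted p = 2.73e-06; two-sided exact permutation p = 0.0286, the smallest that 4 against 4 libraries allow). Across 14294 genes tested, 25.7% were called: 13.0% as higher in Lgr6-null and 12.7% as lower. The labelled cell type is a mixed marrow culture by its markers: stromal and osteoblast genes were present, with all 8 osteoblast markers lower in Lgr6-null (median log2 fold change -2.34), and so were macrophage genes. Of 10 stromal markers, 5 were called higher and 0 lower in Lgr6-null (median log2 fold change 0.68), and their summed level was 35281.5 to 53572.2 normalized counts in wild-type and 56425.6 to 77107.3 in Lgr6-null. Of 18 macrophage markers, 13 were higher and 0 lower (median log2 fold change 0.60), and their summed level was 273540.8 to 321091.7 in wild-type and 414951.8 to 631791.0 in Lgr6-null. Lyz2, the macrophage lysozyme, reached 300686.3 ± 68566.5 normalized counts in Lgr6-null (wild-type 168677.1 ± 14002.0; adjusted p = 0.0289). Markers of osteoclasts moved both ways among 7 tested, with Mmp9 higher and Acp5 and Atp6v0d2 lower, while the osteoclast genes Oscar and Ocstamp were near 0 and Calcr was not in the table. Of the T and NK cell markers, Cd3d, Cd3e, Cd3g, Cd8a and Klrb1c were not in the table; B cell and granulocyte markers summed to at most 270.9 and 223.7 normalized counts in any library. In bulk RNA, fewer cells of a type and less RNA per cell cannot be told apart.

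Together the 10 cathepsins took a larger share of the reads in every Lgr6-null library than in any wild-type library. The share was 0.802%, 0.908%, 1.033% and 0.907% in wild-type M0, M1, M2 and M3. It was 1.178%, 1.188%, 1.469% and 1.068% in Lgr6-null M0, M2, M3 and M4. The means were 0.912% ± 0.094 and 1.226% ± 0.171 (SD, n = 4 each). In the authors' normalized counts the genotypes overlapped, with sums over the 10 genes of 125465.9 to 167961.0 in wild-type and 155599.2 to 230853.3 in Lgr6-null. A share of reads also depends on the levels of all other genes. The 8 osteoblast markers summed to 1157761.6 to 1520148.3 normalized counts in wild-type and 183717.4 to 257287.5 in Lgr6-null. With libraries scaled to the same total, the median log2 fold change over all genes tested was 0.094, against 0.001 in the main fit. Most of the cathepsin reads came from Ctsb (46.5% in wild-type, 48.2% in Lgr6-null) and Ctsd (19.5% and 22.1%). The share of the cathepsin reads taken by Ctsl was 5.25% ± 0.502 in wild-type and 2.22% ± 0.264 in Lgr6-null. That of Ctse was 0.0132% ± 0.00278 and 0.643% ± 0.0797.

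The genotypes separated for 3 of the 10 genes. All 4 Lgr6-null libraries lay above all wild-type libraries for Ctsd and Ctse, and below them for Ctsl. Among all genes tested, 14.4% lay wholly above, 14.7% wholly below and 29.1% one or the other, and nothing is read from the members' count against these shares because the same values chose the genes. For 7 of 10 the log2 fold change was above 0, beside 7182 of the 14294 genes tested. The median of the 10 was 0.25, beside 0.001 over all genes tested. Nothing is read from these either, for the same reason. When libraries were scaled to the same total in place of the authors' size factors, Ctsb, Ctsc and Ctsz also lay wholly above, and without Lgr6-null M4 Ctsb and Ctsz did. So did Ctsc without wild-type M0, Ctsz without wild-type M1 and Ctsb without wild-type M2. Ctsl was the gene wholly below in each of these.

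**Figure D1:**
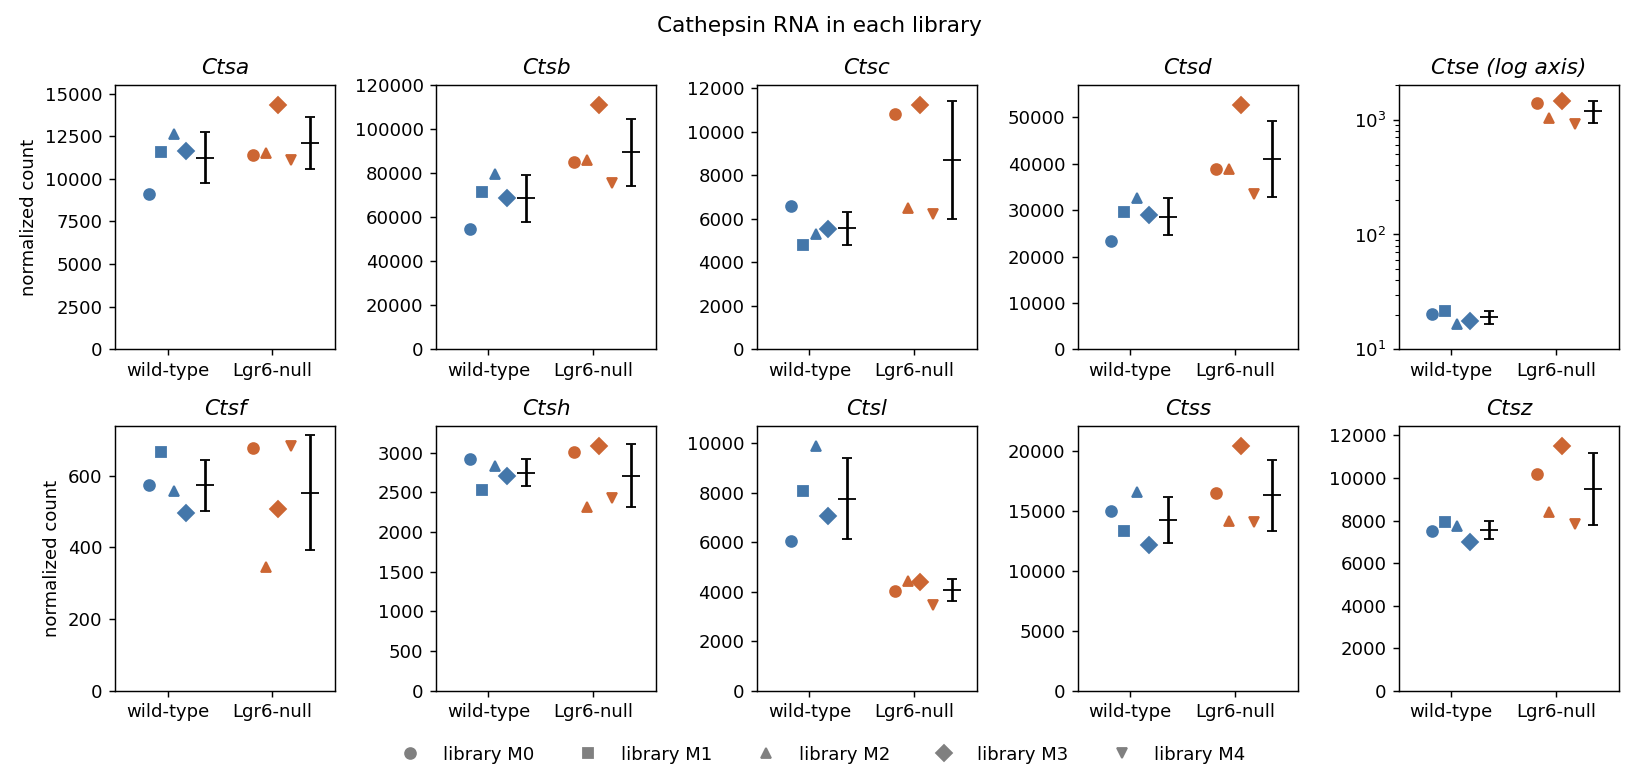
Normalized counts (y axis; log axis for Ctse) of the 10 cathepsins in the 4 wild-type (blue) and 4 Lgr6-null (orange) libraries; the symbol gives the library number, and the black mark with bars gives the mean ± SD. Ctse sits between 16.55 and 21.78 in wild-type and between 922.1 and 1439.1 in Lgr6-null, Ctsl between 6039.9 and 9896.8 against 3457.5 to 4411.8, and for the genes other than Ctsd, Ctse and Ctsl the genotypes overlap.

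The aspartic proteases, Ctse and Ctsd, were the members wholly above in Lgr6-null. Ctse, an endosomal aspartic protease found mainly in stomach and in immune cells, was low in wild-type cultures, at 20.41, 21.78, 16.55 and 17.72 normalized counts in M0, M1, M2 and M3. In Lgr6-null M0, M2, M3 and M4 it was 1384.6, 1031.6, 1439.1 and 922.1. These levels rest on 14 to 23 reads per wild-type library and 483 to 1936 per Lgr6-null library. The means were 19.11 ± 2.399 and 1194.3 ± 256.1 (SD, n = 4 each), a 62.5-fold ratio and a log2 fold change of 5.88 (SE 0.17), which ranked 6 from the top among the 14294 genes tested. Per kilobase of exon, Ctse was last of the 10 in wild-type (6.029 normalized counts) and above Ctsf in Lgr6-null (376.8 against 109.7).

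Ctsd, the main aspartic endopeptidase of the lysosome, was 23300.9, 29557.7, 32709.5 and 28975.5 normalized counts in wild-type M0, M1, M2 and M3. It was 38992.5, 38839.6, 52787.6 and 33481.1 in Lgr6-null M0, M2, M3 and M4. The highest wild-type and lowest Lgr6-null libraries were close, M2 at 32709.5 and M4 at 33481.1. The means were 28635.9 ± 3916.7 and 41025.2 ± 8249.8, with a log2 fold change of 0.51 (SE 0.16).

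Ctsl, a cysteine endopeptidase that also processes other lysosomal enzymes, was the member wholly below in Lgr6-null. It was 6039.9, 8071.4, 9896.8 and 7042.3 normalized counts in wild-type M0, M1, M2 and M3, and 4007.6, 4411.8, 4381.2 and 3457.5 in Lgr6-null M0, M2, M3 and M4. Every Lgr6-null library was below the lowest wild-type library, M0. The means were 7762.6 ± 1646.9 and 4064.5 ± 444.5, a ratio of 0.524 and a log2 fold change of -0.92 (SE 0.14). Leaving out each library in turn gave values from -1.03 to -0.79.

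The other cysteine endopeptidases overlapped between genotypes. Ctsb, which cuts within proteins and also trims pairs of residues from the C-terminus, was 54452.2, 71359.3, 79690.2 and 68585.9 normalized counts in wild-type M0, M1, M2 and M3. In Lgr6-null M0, M2, M3 and M4 it was 85069.1, 85865.5, 111127.2 and 75375.9. Lgr6-null M4 lay below wild-type M2, and the other Lgr6-null libraries lay above every wild-type library. The log2 fold change was 0.38 (SE 0.17). Ctss, an endopeptidase of antigen-presenting cells that stays active at neutral pH and cuts the class II invariant chain, was 12170.5 to 16541.1 in wild-type and 14091.6 to 20407.7 in Lgr6-null, a log2 fold change of 0.19 (SE 0.14). Ctsf, a papain-family endopeptidase, was the lowest of these. It was 496.2 to 666.5 in wild-type and 344.1 to 683.5 in Lgr6-null, so that the spread of the Lgr6-null libraries took in all the wild-type libraries. Its log2 fold change of -0.10 (SE 0.20) ran from -0.22 to 0.11 when each library was left out in turn.

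Among the enzymes that trim chain ends, Ctsc had the highest log2 fold change. Ctsc, also called dipeptidyl peptidase I, removes dipeptides from the N-terminus and activates serine proteases of immune cell granules. It was 6580.7, 4804.9, 5312.5 and 5525.7 normalized counts in wild-type M0, M1, M2 and M3, and 10817.9, 6498.4, 11241.5 and 6199.1 in Lgr6-null M0, M2, M3 and M4. The Lgr6-null libraries fell into a high pair, M0 and M3, and a low pair, M2 and M4, which lay just below wild-type M0. Its log2 fold change was 0.60 (SE 0.20). Ctsz, a carboxypeptidase, was 6989.1 to 7936.0 in wild-type and 7831.4 to 11516.6 in Lgr6-null, with Lgr6-null M4 below wild-type M1, and a log2 fold change of 0.31 (SE 0.12). Ctsh, mainly an aminopeptidase, was 2529.8 to 2927.2 against 2314.3 to 3088.6, and its log2 fold change of -0.03 (SE 0.10) became 0.06 under same-total scaling and ran from -0.10 to 0.04 with each library left out.

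Ctsa, the serine carboxypeptidase, holds neuraminidase 1 and β-galactosidase in a complex that protects them in the lysosome. It was 9104.4, 11550.8, 12632.8 and 11638.8 normalized counts in wild-type M0, M1, M2 and M3. It was 11406.6, 11502.2, 14357.6 and 11128.5 in Lgr6-null M0, M2, M3 and M4. The genotypes overlapped, with Lgr6-null M3 apart from the other Lgr6-null libraries and a log2 fold change of 0.11 (SE 0.12).

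Scaled to exon length, the level of Ctsd was highest, at 12180.3 normalized counts per kilobase in wild-type, followed by Ctsb at 11324.1 and Ctss at 10488.5, neighbours whose libraries overlapped. Ctsz at 5235.5 and Ctsa at 2382.1 stood apart from their neighbours in the order. Ctsl at 1196.3 and Ctsc at 956.6 overlapped, and Ctsh at 611.4, Ctsf at 113.7 and Ctse at 6.029 followed without overlap. In Lgr6-null the first 5 came in the same order, from Ctsd at 17450.1 per kilobase to Ctsa at 2566.0. Ctsc (1496.1) then stood above Ctsl (626.4), and Ctsl overlapped with Ctsh (602.7). Exon length here joins the exons of all annotated transcripts of a gene, from 1358 bases (Ctss) to 6489 (Ctsl). The order depends on these lengths, and the transcripts made in these cultures were not measured. Before scaling, Ctsb was above Ctsd in wild-type, at 68521.9 against 28635.9 normalized counts.

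**Figure D2:**
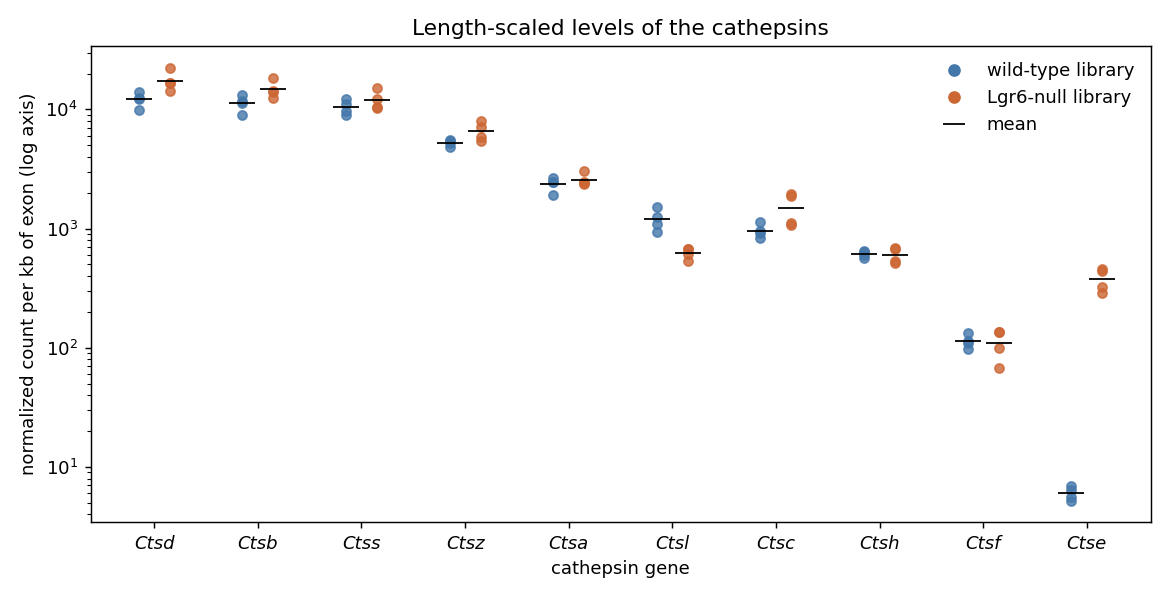
Normalized count per kilobase of exon (log axis) of each cathepsin, ordered by the wild-type mean, with 1 point per library (blue wild-type, orange Lgr6-null) and a black mark for the mean. Ctsd, Ctsb and Ctss lie at 10488.5 to 12180.3 in wild-type and Ctse at 6.029, and Ctse is at 376.8 in Lgr6-null.

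Promoter windows from RefSeq (GRCm38.p6; 250 bases before and 50 after the annotated start) were matched by symbol for 7 of the 10 genes. They are shown for 5 genes that carry a listed motif and that span the pattern of differences: Ctsd (wholly above), Ctsl (wholly below), and Ctsa, Ctsc and Ctss (overlapping). The motifs, searched on both strands, were CACGTG, the core E-box; TCACGTGA, an E-box of the kind bound by TFEB and its relatives, which contains CACGTG; and GAGGAAGT, of the kind bound by PU.1 (Spi1), the macrophage and B cell factor. They occurred in 7.15%, 0.974% and 3.2% of 32851 mouse promoters and were kept after looking for 12 motifs in these windows. The windows lie at chr7:142387778-142388077 on the minus strand (Ctsd), chr2:164833523-164833822 on the plus strand (Ctsa), chr13:64370471-64370770 on the minus strand (Ctsl), chr7:88277835-88278134 on the plus strand (Ctsc) and chr3:95526536-95526835 on the plus strand (Ctss), and capitals mark the matches:
Ctsd: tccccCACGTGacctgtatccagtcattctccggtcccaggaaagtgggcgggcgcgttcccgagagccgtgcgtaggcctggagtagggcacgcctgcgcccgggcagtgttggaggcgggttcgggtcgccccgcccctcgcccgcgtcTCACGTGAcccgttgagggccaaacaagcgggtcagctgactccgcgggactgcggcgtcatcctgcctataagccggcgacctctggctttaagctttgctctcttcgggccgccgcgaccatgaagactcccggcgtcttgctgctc
Ctsa: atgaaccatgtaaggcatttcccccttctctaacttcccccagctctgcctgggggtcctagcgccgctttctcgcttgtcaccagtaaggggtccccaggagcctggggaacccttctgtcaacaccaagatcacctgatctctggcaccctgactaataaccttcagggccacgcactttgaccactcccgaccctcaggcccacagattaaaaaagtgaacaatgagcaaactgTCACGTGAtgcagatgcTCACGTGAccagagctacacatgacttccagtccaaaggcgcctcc
Ctsl: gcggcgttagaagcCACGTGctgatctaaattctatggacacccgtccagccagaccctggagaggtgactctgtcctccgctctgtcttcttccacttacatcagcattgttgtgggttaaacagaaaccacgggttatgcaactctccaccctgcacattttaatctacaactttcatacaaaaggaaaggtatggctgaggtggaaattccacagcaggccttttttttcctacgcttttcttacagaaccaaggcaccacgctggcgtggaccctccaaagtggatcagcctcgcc
Ctsc: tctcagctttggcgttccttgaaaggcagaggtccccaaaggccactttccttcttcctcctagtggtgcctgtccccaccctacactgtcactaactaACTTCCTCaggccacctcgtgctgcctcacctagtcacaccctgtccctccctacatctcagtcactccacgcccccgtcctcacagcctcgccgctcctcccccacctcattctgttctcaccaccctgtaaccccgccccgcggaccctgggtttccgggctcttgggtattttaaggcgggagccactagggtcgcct
Ctss: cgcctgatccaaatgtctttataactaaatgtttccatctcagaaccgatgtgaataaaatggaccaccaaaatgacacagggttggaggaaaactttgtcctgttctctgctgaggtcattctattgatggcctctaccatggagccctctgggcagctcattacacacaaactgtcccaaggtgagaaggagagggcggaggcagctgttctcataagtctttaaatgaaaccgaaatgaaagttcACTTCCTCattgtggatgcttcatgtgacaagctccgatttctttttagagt

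Counting the start site as base 1, TCACGTGA began at base -99 in Ctsd, where a separate CACGTG began at base -245, and at bases -13 and 5 in the Ctsa window shown; a further RefSeq window for Ctsa, chr2:164832622-164832921 on the plus strand, held none of the 3 motifs. Ctsl held CACGTG from base -236 and no TCACGTGA. In Ctsc and Ctss the capitals ACTTCCTC are GAGGAAGT read on the other strand, beginning at bases -151 and -2. CACGTG was also found in the Ctsf window, at base -79. The log2 fold changes of the CACGTG genes were 0.51 (Ctsd), 0.11 (Ctsa), -0.10 (Ctsf) and -0.92 (Ctsl). Those of the GAGGAAGT genes were 0.60 (Ctsc) and 0.19 (Ctss). These matches are letters in a window, and binding was not measured.

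The cathepsin family has other members in the table. Ctsk, the collagen-cutting protease of osteoclasts, was 2740.8, 2509.0, 3049.5 and 2355.9 normalized counts in wild-type M0, M1, M2 and M3 and 1397.1, 1769.2, 1787.7 and 1714.4 in Lgr6-null M0, M2, M3 and M4. It fell, with no overlap between genotypes, by 0.68 on the log2 scale (SE 0.10; limma adjusted p = 0.00132). Ctss and Ctsk lie 17.4 kb apart on chromosome 3 with 0 annotated genes between them, and Ctss was higher in its mean while Ctsk was lower. Ctso, a papain-family protease, rose from 683.6 ± 21.7 to 889.1 ± 56.6 (SD, n = 4 each; log2 fold change 0.38, SE 0.06, adjusted p = 0.00237). Ctsw was in the table at 1.675 to 16.7 normalized counts and was not tested. Of the 7 osteoclast markers tested, Acp5, another osteoclast enzyme, fell from 311.9 ± 43.0 to 146.4 ± 39.4 normalized counts (adjusted p = 0.00261) and Atp6v0d2, a proton pump subunit, fell by 1.73 on the log2 scale (adjusted p = 0.00935). Mmp9, a gelatinase, rose by 1.37 (adjusted p = 0.00805), and the list's summed level overlapped between genotypes, at 6715.2 to 7647.2 in wild-type and 6214.3 to 7279.5 in Lgr6-null. The part of osteoclasts in the difference of Ctsk was not tested.

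Cystatins are the inhibitors of the cysteine cathepsins, and 2 of 3 tested were called higher. Of all genes tested, 13.0% were called higher and 12.7% lower, the shares to set beside this list and those that follow. Cst3, the secreted cystatin C, had 6042.7 to 7208.8 normalized counts in wild-type and 7453.4 to 11045.3 in the Lgr6-null cultures (log2 fold change 0.38, SE 0.12, adjusted p = 0.0432). The call was lost when any one of wild-type M0, M1, M2, M3 or Lgr6-null M0 was left out (adjusted p 0.0265 to 0.102 over the 8 left-out libraries). Cst6, a secreted inhibitor of cathepsin L and legumain, was 15.19 to 32.46 in wild-type and 30.55 to 87.71 in Lgr6-null (adjusted p = 0.0423). Its call was lost without wild-type M1, M2 or M3 or Lgr6-null M0, M2 or M3, with adjusted p 0.0196 to 0.107 over the left-out libraries. Cstb, the intracellular cystatin B, was not called (log2 fold change 0.37, SE 0.13, adjusted p = 0.0616).

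A list of lysosomal peptidases, of proteins that process or bind cathepsins and of the cathepsin A complex was called higher in 6 of 12 and lower in 0 (median log2 fold change 0.31). Neu1, the neuraminidase held by cathepsin A, rose from 977.5 ± 59.5 to 1407.9 ± 201.4 normalized counts (adjusted p = 0.00474), and Prcp, a lysosomal prolyl carboxypeptidase, from 786.1 ± 79.9 to 1211.3 ± 181.8 (adjusted p = 0.00388). Ifi30, a lysosomal thiol reductase, rose by a log2 fold change of 0.51 (SE 0.11, adjusted p = 0.0072). Grn, precursor of the granulins and a regulator of lysosomal function, rose from 13039.5 ± 1199.4 to 20494.6 ± 4398.8 (log2 fold change 0.63, SE 0.14, adjusted p = 0.0102). Lgmn, the legumain that cleaves single-chain cathepsins into their mature chains, rose by 0.45 on the log2 scale (SE 0.13, adjusted p = 0.0273), a call lost without wild-type M0 or M1 (adjusted p 0.0344 to 0.07 over the left-out libraries). Psap, the saposin precursor, was not called (0.30, SE 0.12, adjusted p = 0.101).

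**Figure D3:**
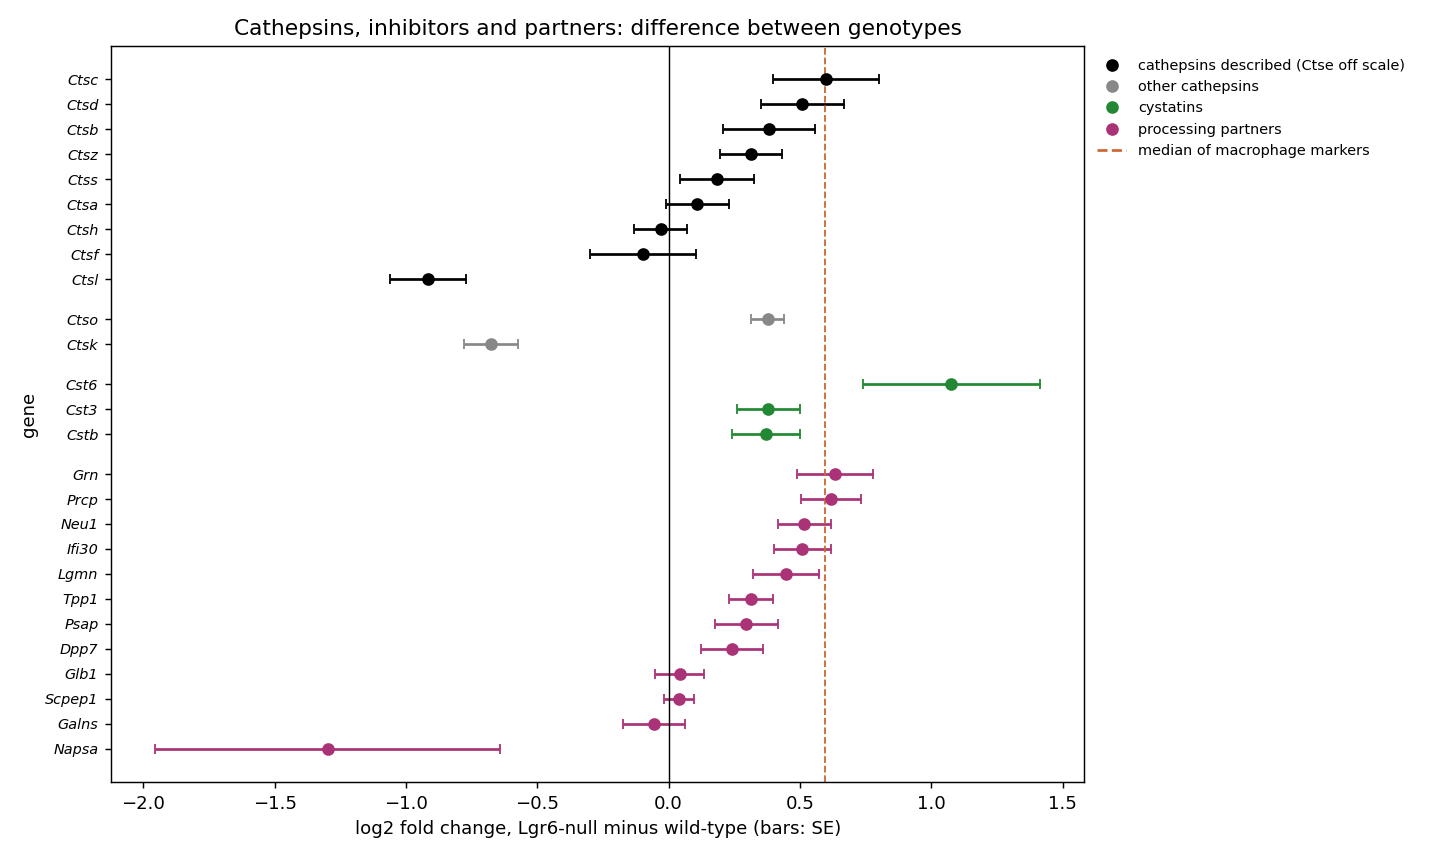
Log2 fold change, Lgr6-null minus wild-type (x axis; bars, SE of the limma fit), of 9 cathepsins (black; Ctse is off scale at 5.88), other cathepsins (grey), cystatins (green) and the list of other lysosomal peptidases and cathepsin partners (purple; processing partners in the key). The dashed line is the median of 18 macrophage markers, 0.60; Ctsc (0.60) sits at it and Ctsl (-0.92) and Ctsk (-0.68) lie left of 0.

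Proteins that sort lysosomal enzymes were called higher in 8 of 17 and lower in 0 (median log2 fold change 0.21), with 13 higher when libraries were given equal totals. Scarb2, the receptor that carries glucocerebrosidase, rose by 0.35 on the log2 scale (SE 0.05, adjusted p = 0.00128), and Vps26a and Vps29, subunits of the retromer that recycles sorting receptors, each rose by 0.32 (adjusted p = 0.00452 and 0.0049). Among the other lysosomal hydrolases, 12 of 26 were called higher and 1 lower (median 0.23), with 6 higher without wild-type M1 and 7 without Lgr6-null M0. Pla2g15, a lysosomal phospholipase, rose by 0.70 on the log2 scale (adjusted p = 0.00171), and Man2b1, the lysosomal α-mannosidase, by 0.72 (adjusted p = 0.00599). Smpd1, the acid sphingomyelinase, fell from 1247.6 ± 42.1 to 965.6 ± 30.6 normalized counts (log2 fold change -0.37, SE 0.05, adjusted p = 0.00115).

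Lysosomal membrane and proton pump genes were called higher in 7 of 22 and lower in 0 (median log2 fold change 0.19). With libraries given equal totals the count was 15, and with the macrophage covariate 0. The smallest p-values were those of Ctns, the cystine exporter (0.42, adjusted p = 0.000991), Npc1, a cholesterol transporter (0.38, adjusted p = 0.00211), Ostm1, partner of the chloride exchanger Clcn7 (0.37, adjusted p = 0.00734), and Lamp1, the membrane glycoprotein (0.41, adjusted p = 0.0149). Larger fold changes were called for the proton pump genes Atp6v0c (1.00, adjusted p = 0.0182) and Atp6ap2 (0.45, adjusted p = 0.0226), which were named after their values were seen. Atp6v0c overlapped between genotypes, with wild-type M1 at 2759.9 and Lgr6-null M4 at 2512.5 normalized counts. Of the transcription factors that control lysosomal genes, Tfec rose from 226.1 ± 28.2 to 416.1 ± 89.4 normalized counts (adjusted p = 0.00247) and Tfe3 by 0.40 (adjusted p = 0.0114). Tfeb (0.20, SE 0.10, adjusted p = 0.182) and Mitf (0.27, SE 0.16, adjusted p = 0.243) were not called. Over all partner lists, 39 of 94 genes tested were called higher and 6 lower, beside 13.0% and 12.7% of all genes, and the median log2 fold change was 0.22. The loss of calls with the macrophage covariate was not particular to the membrane list. Over all partner lists that fit called 1 gene higher, in the sorting list, and 0 lower.

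Class II antigen processing, where cathepsin S and L cut the invariant chain, went the other way. Of its 7 genes, 4 were called lower and 0 higher, beside 12.7% and 13.0% of all genes. Cd74, the invariant chain itself, was 4604.2 in wild-type M0, 281.2 in M1, 234.3 in M2 and 815.2 in M3, and 106.9, 113.0, 123.4 and 76.37 in Lgr6-null M0, M2, M3 and M4. Every Lgr6-null library lay below every wild-type library, and wild-type M0 lay far above the other wild-type libraries. Cd74 had a log2 fold change of -2.76 (SE 0.79, adjusted p = 0.0282), lost without wild-type M3, Lgr6-null M0 or Lgr6-null M4 (0.00977 to 0.0685 over the left-out libraries). Without wild-type M0 the Cd74 log2 fold change was -1.86, and edgeR on the recovered reads gave -3.78. H2-Aa, Ciita and H2-Ab1 fell too, at log2 fold changes of -4.13, -2.26 and -2.07 (adjusted p = 0.0112, 0.0387 and 0.0458), and the count of 4 became 2 without wild-type M0, Lgr6-null M3 or Lgr6-null M4 and 1 without wild-type M3 or Lgr6-null M0. Dendritic cell markers, which mark cells rich in class II, were low: Zbtb46, the 1 of 6 that could be tested, fell from 76.03 ± 14.54 to 39.44 ± 14.21 normalized counts (adjusted p = 0.0193). The part of dendritic cells in the class II difference was not tested. Of the granule serine proteases that cathepsin C activates, 1 was abundant enough to test, and that gene, Gzmc, rose from 51.76 ± 20.7 to 128.9 ± 41.5 normalized counts (adjusted p = 0.0126).

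Macrophage markers differed between these genotypes too. Averaged on the log2 scale, the 18 markers were at 12.38 to 12.57 in wild-type and 12.84 to 13.46 in Lgr6-null, a difference of 0.61. Taken relative to that mean in each library, Ctsd differed between genotypes by -0.11, Ctsc by -0.01, Ctsz by -0.30 and Ctsb by -0.23. Ctsa, Ctsf, Ctsh and Ctss differed by -0.50, -0.71, -0.64 and -0.43, Ctsl by -1.53 and Ctse by 5.26. With the marker mean as a covariate in the fit, the log2 fold change of Ctsd was -0.002, that of Ctse 5.37 and that of Ctsl -1.13. The marker means of the genotypes did not overlap, so marker level and genotype cannot be told apart, and the part of macrophage number in the cathepsin levels was not tested.

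Within a genotype, the extreme libraries recurred across cathepsins. Lgr6-null M3 held the highest level for 8 of the 10 genes and Lgr6-null M4, the shallowest library, the lowest for 8. In wild-type, M2 was highest for 5 and M0 was lowest for Ctsa, Ctsb, Ctsd and Ctsl but highest for Ctsc and Ctsh. Ctsb and Ctsd deviated together, from -0.32 and -0.29 in wild-type M0 to 0.33 and 0.38 in Lgr6-null M3 on the log2 scale.

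**Figure D4:**
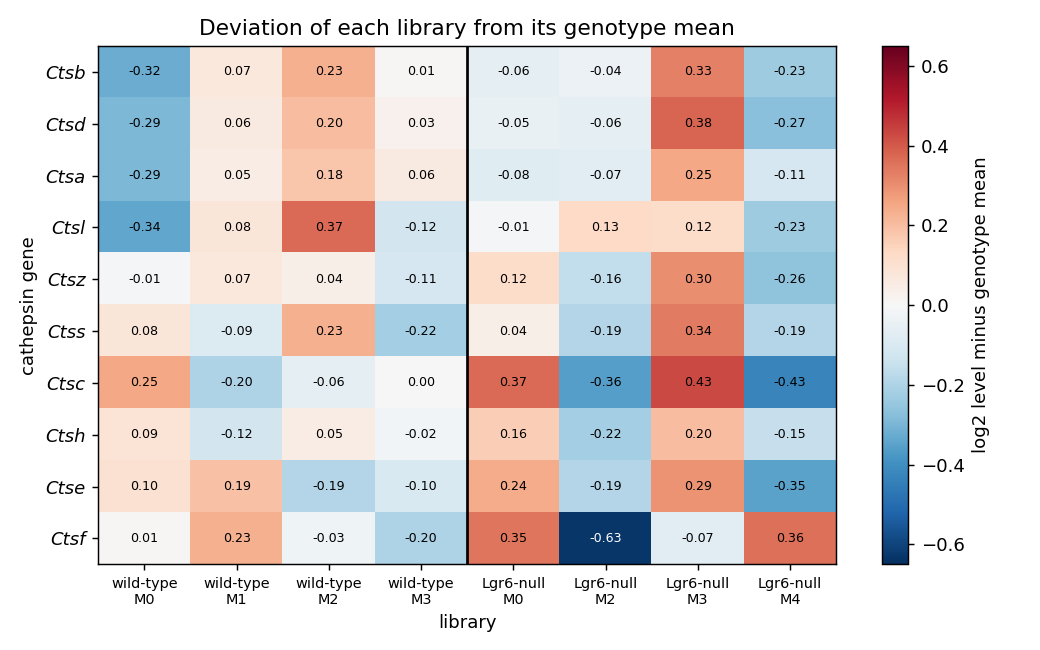
Log2 level of each cathepsin in each library minus the mean of its genotype (colour scale, blue below and red above; the number is the value), with wild-type libraries left of the line and Lgr6-null libraries right of it. Lgr6-null M3 is above its genotype mean for all genes but Ctsf (-0.07), wild-type M0 is at -0.32 for Ctsb, and Lgr6-null M2 is at -0.63 for Ctsf.

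By root mean square difference of centred log2 levels over the 8 libraries, among 11100 genes with a mean of at least 50, the 2 genes most like each cathepsin were named. Ctsb was nearest to Trem2, a receptor of macrophages (0.052), and Tec (0.062); Ctsc to Fcgr1, the high-affinity IgG receptor (0.066), and Prdx5 (0.095); and Ctsd to Sesn1 and to Ctsb (0.070 each). Ctsl was nearest to Unc13a (0.104) and Plekhh2 (0.131), Ctss to Taldo1 (0.067) and Tm7sf2 (0.069), and Ctsz to Ero1lb (0.042) and Adam17 (0.049). Ctsa was nearest to Cmc1 (0.067) and Usf2 (0.072), Ctsh to Psma7 (0.052) and Papss1 (0.062), and Ctsf to Casp12 (0.160) and Hddc2 (0.168). For Ctse the distances were larger, and its closest genes were Ptprv (0.470) and the pseudogene Nudc-ps1 (0.779).

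Ctse lies on chromosome 1, as Lgr6 does, and so does Ptprv. Ctse and Lgr6 are separated by 3.31 Mb with 107 annotated genes, of which 38 were tested, and 5 of these were called higher and 4 lower (23.7% of 38 against 25.7% of all genes). Their log2 fold changes ran from -1.84 to 2.86 with a median of 0.02. The highest were Pm20d1, at 2.86 (adjusted p = 2.45e-05), and Cntn2, at 2.26 (adjusted p = 0.00901), which were named after their values were seen. Ptprv, whose start is 0.027 Mb from that of Lgr6, rose from 72.34 ± 11.91 to 2671.3 ± 383.4 normalized counts (SD, n = 4 each; log2 fold change 5.19, adjusted p = 3.95e-08). A difference in sequence linked to the targeted allele cannot be told apart from loss of Lgr6 for a gene at this distance.

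**Figure D5:**
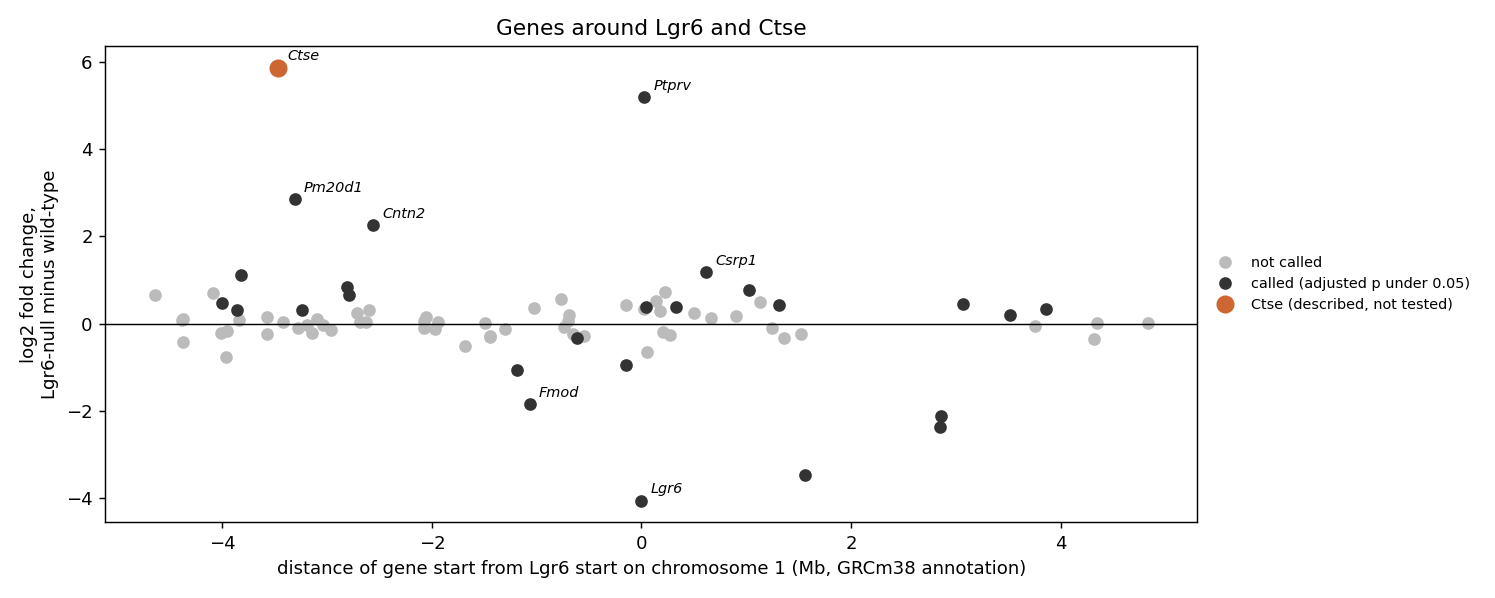
Log2 fold change, Lgr6-null minus wild-type (y axis), of the tested genes within 5 Mb of the Lgr6 start on chromosome 1 against the distance of their starts (x axis, Mb). Dark points were called at an adjusted p under 0.05 and grey points were not. The called genes are 25 of the 83 other than Ctse, with Lgr6 itself among them, beside 25.7% of all genes tested. The orange point is Ctse, which is shown as a description. Ctse at 5.88 and Ptprv at 5.19 are the highest points.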

How the data were processed

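Polyadenylated RNA from 8 cultures was read as 100 bp paired ends. The authors deposited a table of normalized counts, a signal per gene; per the submitters' processing notes, the tools included DESeq2, HTSeq 0.13.5 and HISAT2 2.1.1, with build GRCm39. The annotation and strand setting are not stated in the labels or the file. Values in each column were whole multiples of 1 step (100% within 0.01 read), so whole reads were recovered: 7629968 to 21135173 per library. Symbols and exon lengths came from GENCODE M21 (GRCm38; 19368 identifiers matched, 92 did not).

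Genotypes were compared with limma 3.58.1 (R 4.3.3, mean-variance trend) on log2(normalized count + 1), for genes at 10 or more in at least 4 of 8 libraries; a call needed an adjusted p (Benjamini-Hochberg, over all 14294) under 0.05. This scale understates changes of low genes. Alternatives were edgeR 4.0.16 and DESeq2 1.42.0 on the recovered reads, other pseudocounts and filters, the same total per library, covariates and each library left out. On simulated data limma called 41.8%, 70.1% and 93.9% of genes changed by 1.5, 2 and 4-fold, and 6 unchanged genes of 14308 tested. Only 200 genes were changed there and each gene was drawn independently, while 25.7% of genes were called in the real libraries. These rates may therefore differ from those of the real comparison.

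The labels do not say whether libraries are separate animals or cultures, and a p-value here reflects only the spread between these libraries, which may be technical. Column numbers match no replicate number in the titles. Pairs of libraries within a genotype differed beyond sampling noise (chi-square per degree of freedom at least 8.59). The members, lists, motifs and the rule for named genes (all members, set regulators, up to 4 called genes per list by smallest p, the 2 nearest profiles) were chosen with earlier results of these data known; some genes that the rule names are not reported here. The table holds genes with at least 11 reads in all. Intervals are not given for levels, and PCR copies cannot be counted apart. Besides the 3 motifs described, 9 others were looked for in the members' windows: CACGTGA (in 3.77% of all promoters), TCACATG (3.99%), GAGGAAG (13.6%), GGGCGG (35.7%), CCAAT (37.4%), TATAAA (13.6%), TGAGTCA (5.2%), AACCACA (5.27%) and TTCCNGGAA (1.15%), of which the last 3 matched none of these windows.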

Additional observations from a re-analysis of the deposited data

Results flagged for a closer look

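In 7 of 86 groups of 4 libraries (20 of them of the cathepsins), the gap between the extreme library and its nearest neighbour took more of the group's range than Dixon's critical value allows. Chance gives about 1 in 20. Ctsa was 14357.6 normalized counts in Lgr6-null M3 against 11128.5 to 11502.2 in the other Lgr6-null libraries (gap share 0.884). Lgr6-null M3 was also apart for Ctso, at 973 against 853.4 to 873.5 (0.832), and for Tfec, at 548.6 against 353.2 to 385.2 (0.836). Wild-type M0 was apart for Cd74, at 4604.2 against 234.3 to 815.2 (0.867), for Ciita, at 138.2 against 14.2 to 27.85 (0.890), and, as the lowest, for Ifi30, at 866.3 against 1096.3 to 1123.8 (0.893). Wild-type M1 was apart for Ostm1, at 729 against 671.6 to 678.9 (0.872).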

How the results depend on the processing

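Pseudocounts of 0.5 and 5, both filters, edgeR and DESeq2 moved the counts over all genes and over all partner lists by less than 1.5 times and kept the direction of each cathepsin. With libraries scaled to the same total, 2894 genes were called higher and 1283 lower (69.3% of calls higher against 50.5% mainly; median shift 0.09), 62 partner genes were called higher, and 5 cathepsins lay wholly above. With the macrophage covariate, 330 genes were called higher and 530 lower, with 1 partner gene higher and 0 lower. In that fit the Ctsd log2 fold change fell to about 0 (-0.0019) and that of Cst3 to -0.13. Of the 10 members, those other than Ctsd and Ctse were negative, from -1.13 (Ctsl) to -0.05 (Ctsb). The cause was not tested. In a fit with a replicate block by column number, 937 genes were called higher and 1021 lower, and 22 and 3 partner genes. Same-numbered columns correlated at -0.01, -0.117 and 0.027, which gives no sign of pairing. Differently numbered columns were not correlated for reference, so whether the numbers pair the libraries was not settled. Leaving out each library gave 1321 to 1854 genes higher and 1376 to 1797 lower, 2 to 4 cathepsins wholly above (4 without Lgr6-null M4), 27 to 43 partner genes higher and 3 to 6 lower (3 without wild-type M3 or Lgr6-null M0). Ctse stayed between 5.37 and 6.05 and Ctsl between -1.13 and -0.79 in every setting. Wild-type Ctse rests on 14 to 23 reads per library, which limits its ratio.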
